A study of Homo sapiens with 12 samples.

Results

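The genes described here are 35 interferon response genes, a module of genes whose mRNAs are known to rise when cells are exposed to type I interferon. They were chosen by name, with earlier results of these data known, and all 35 were found among the 20263 genes of the deposited tables. Their levels were measured by mRNA sequencing in 12 libraries of 2 established cell lines from human colorectal cancers, HCT116 and RKO, under a study title that links CKAP2L to STAT3, AREG and EGFR. HCT116 cells carried a CKAP2L overexpression construct (CKAP2L, 3 libraries) or an empty vector (vector, 3 libraries). RKO cells carried a short hairpin RNA against CKAP2L (shCKAP2L, 3 libraries) or a negative control (NC, 3 libraries). CKAP2L, which encodes a mitotic spindle protein, was thus raised in one line and lowered in the other, and no line was given both manipulations. Groups follow the library titles, while the genotype labels of shCKAP2L replicates 2 and 3 name other symbols. No interferon treatment is named in the labels. The sources used here do not give whether each line was a clone or a pool, nor whether replicates were separate cultures. Every p-value below therefore rests on the spread between libraries alone, and that spread may be technical. Levels are in TPM, the length-adjusted share of a library's transcripts, scaled to a fixed total.

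Type I interferons are secreted proteins that bind the receptor made of IFNAR1 and IFNAR2. The receptor's kinases JAK1 and TYK2 phosphorylate transcription factors, among them STAT2, which joins IRF9 in a complex that binds a DNA element, the interferon-stimulated response element, in the promoters of its target genes. The products of these genes sense viral RNA, block translation and virus release, degrade RNA and feed back on the signal. Type III interferons, the lambda family that acts mainly on epithelia, use another receptor and the same transcription factor complex.

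The core of the response element, searched as GAAA, any 2 bases and GAAA again, on both strands, overlapping matches included, from 250 bases before to 50 bases after each RefSeq gene start (GRCh38.p14), was present for 18 of the 28 members that have an entry in the promoter table, 64.3%, against 624 of 15258 other genes of the deposited tables, 4.09%. Promoter windows of 6 members are shown because the results below turn on these genes, and they were chosen after the values were seen. ISG15 had the smallest adjusted p of the members in HCT116, IFIT1 rose in HCT116 without a call in RKO, BST2 and SAMD9 changed in opposite directions in the lines, and HERC6 and ISG20 had the smallest adjusted p of the members that rose in RKO. Each is the 180 bases before the gene start, from RefSeq, read 5′ to 3′ on the gene's strand, with the core in capitals: ISG15 at chr1:1013317-1013496 (plus strand), IFIT1 at chr10:89392443-89392622 (plus), BST2 at chr19:17405631-17405810 (minus), SAMD9 at chr7:93117980-93118159 (minus), ISG20 at chr15:88638836-88639015 (plus) and HERC6 at chr4:88378672-88378851 (plus).
ISG15: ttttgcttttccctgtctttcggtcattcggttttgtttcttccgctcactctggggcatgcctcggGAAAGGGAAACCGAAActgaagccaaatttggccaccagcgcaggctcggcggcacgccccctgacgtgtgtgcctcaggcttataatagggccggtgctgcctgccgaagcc
IFIT1: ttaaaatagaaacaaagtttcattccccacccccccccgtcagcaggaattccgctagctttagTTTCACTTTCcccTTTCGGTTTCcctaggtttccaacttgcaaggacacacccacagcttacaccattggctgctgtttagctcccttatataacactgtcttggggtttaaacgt
BST2: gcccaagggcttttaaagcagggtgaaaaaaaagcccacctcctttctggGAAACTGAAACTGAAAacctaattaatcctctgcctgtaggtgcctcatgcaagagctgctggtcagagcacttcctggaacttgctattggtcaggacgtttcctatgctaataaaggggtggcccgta
SAMD9: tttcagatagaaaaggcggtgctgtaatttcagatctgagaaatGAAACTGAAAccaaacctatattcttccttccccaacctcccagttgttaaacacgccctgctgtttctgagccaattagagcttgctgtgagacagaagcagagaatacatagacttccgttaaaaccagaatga
ISG20: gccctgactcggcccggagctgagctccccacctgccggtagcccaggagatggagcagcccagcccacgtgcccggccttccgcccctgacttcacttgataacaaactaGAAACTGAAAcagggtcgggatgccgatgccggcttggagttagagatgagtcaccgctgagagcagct
HERC6: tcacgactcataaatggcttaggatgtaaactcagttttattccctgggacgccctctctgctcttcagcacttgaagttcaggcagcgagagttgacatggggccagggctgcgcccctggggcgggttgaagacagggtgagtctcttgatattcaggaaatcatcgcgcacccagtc
The ISG15 and BST2 windows each hold a pair of overlapping cores. IFIT1 holds a pair on the opposite strand, separated by a short run of C. SAMD9 and ISG20 hold 1 core each, and the HERC6 window holds no match to these letters. Gene positions given below are from GENCODE release 29, whose gene starts differ from the RefSeq starts used here. The ISG15 and ISG20 windows therefore lie within the GENCODE intervals of these genes.

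CKAP2L mRNA moved as the library titles state, at 231, 231 and 219 TPM with the construct, against 14.2, 12.8 and 15.2 TPM with vector in HCT116. In RKO it was at 7.59, 7.82 and 8.56 TPM with the hairpin, against 24.9, 24.0 and 25.8 TPM with NC. Between 14181 and 16684 genes were above 0 per library, and the sequencing depth is unknown because TPM keeps none. Of 10 epithelial markers, 6 averaged 1 TPM or more in HCT116 (EPCAM, CDH1, KRT8, KRT18, KRT19 and CDX2) and 4 in RKO (EPCAM, KRT8, KRT18 and CDX2). CDX1, VIL1, CDH17 and LGALS4 were at 0.29 TPM or less in each of the 12 libraries, and CDH1 was listed at 0 in all 6 RKO libraries. The 10 epithelial markers summed to 6329 to 6399.6 TPM in CKAP2L and 6959 to 7337 TPM in vector libraries, and to 149 to 158 TPM in shCKAP2L and 198 to 209 TPM in NC libraries. Keratins made up most of these sums, and single markers went both ways. EPCAM averaged 320.0 ± 3.7 TPM in CKAP2L and 284 ± 2.7 TPM in vector libraries, and KRT8 averaged 1403 ± 17 TPM in CKAP2L and 1758 ± 87 TPM in vector libraries (SD, n = 3 each). In RKO, EPCAM averaged 18.1 ± 0.85 TPM with shCKAP2L and 15.9 ± 0.64 TPM with NC, while KRT18 averaged 92.5 ± 3.3 TPM with shCKAP2L and 149.5 ± 6.0 TPM with NC. Whether this has a part in the results was not tested. Markers of leukocytes were near 0 where they define the cells, with PTPRC at most 0.15 TPM in any library. The 9 immune markers summed to 56.1 to 59.8 TPM in CKAP2L and 60.7 to 63.2 TPM in vector libraries of HCT116, nearly all of it CD68 and HLA-DRA. In RKO they summed to 1056 to 1070.3 TPM with shCKAP2L and 1032 to 1049 TPM with NC, nearly all of it CD68. In these bulk samples fewer cells that express a gene and less RNA per cell cannot be told apart.

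In HCT116, interferon response genes were higher with CKAP2L, with IFIT3, IFIT2, BST2 and IFIT1 first by log2 fold change. Of 29 members that passed the filter on low values (a mean of at least 1 TPM over the 6 libraries of the line), 27 rose, 0 fell and 2, MX1 and CMPK2, did not pass the test. For comparison, 16.4% of the 12732 genes tested rose and 4.26% fell. A gene was called at an adjusted p under 0.05 in a limma fit of log2(TPM + 1) across the tested genes of the line, and fold changes on this scale are followed by their standard error. The members' median log2 fold change was 0.41, against 0.05 over the genes tested. In 28 of the 29 every CKAP2L library lay above every vector library, as was so for 28.3% of tested genes, with 8.98% the other way round. The share of TPM from mitochondrially encoded genes was 25.7% to 26.1% in CKAP2L and 28.0% to 28.6% in vector libraries. With TPM recomputed without those genes 24 members rose and 0 fell. The split over the genes tested was 2082 higher and 543 lower, and 1128 and 1188 under median-of-ratios rescaling, which gave 24 members higher and 0 lower.

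In RKO, tested members were called in both directions. Of 25 tested members 10 rose with shCKAP2L, among them HERC6, IFIT3, RIGI and ISG20, 7 fell, among them USP18, SAMD9 and BST2, and 8 did not pass. The 10 include IFIT2, which passed the filter only through its shCKAP2L values. Over the 11442 genes tested, 68.5% were called, 26.4% higher and 42.1% lower. The members' median log2 fold change was 0.10, against -0.05 over the genes tested. In 11 members every shCKAP2L library lay above every NC library and in 5 below, against 28.1% and 43.3% of tested genes. Median-of-ratios rescaling gave 13 members higher and 5 lower, against 3987 and 3998 of the genes tested, where the deposited scale gave 3019 and 4819. The share of TPM from mitochondrially encoded genes was 22.4% to 23.7% in shCKAP2L and 20.4% to 22.5% in NC libraries. TPM without those genes gave 12 and 5, and quantile normalization 11 and 5. Counts over all genes under these scalings are not given here, so the member counts are not set against a share. The median log2 fold change over the genes tested was -0.02 and -0.01 under them. These 3 rescalings, 8 other settings of the fit and 6 fits that each left out 1 library made up 17 alternatives per line, and a call that any of them ended is named with the gene.

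**Figure D1:**
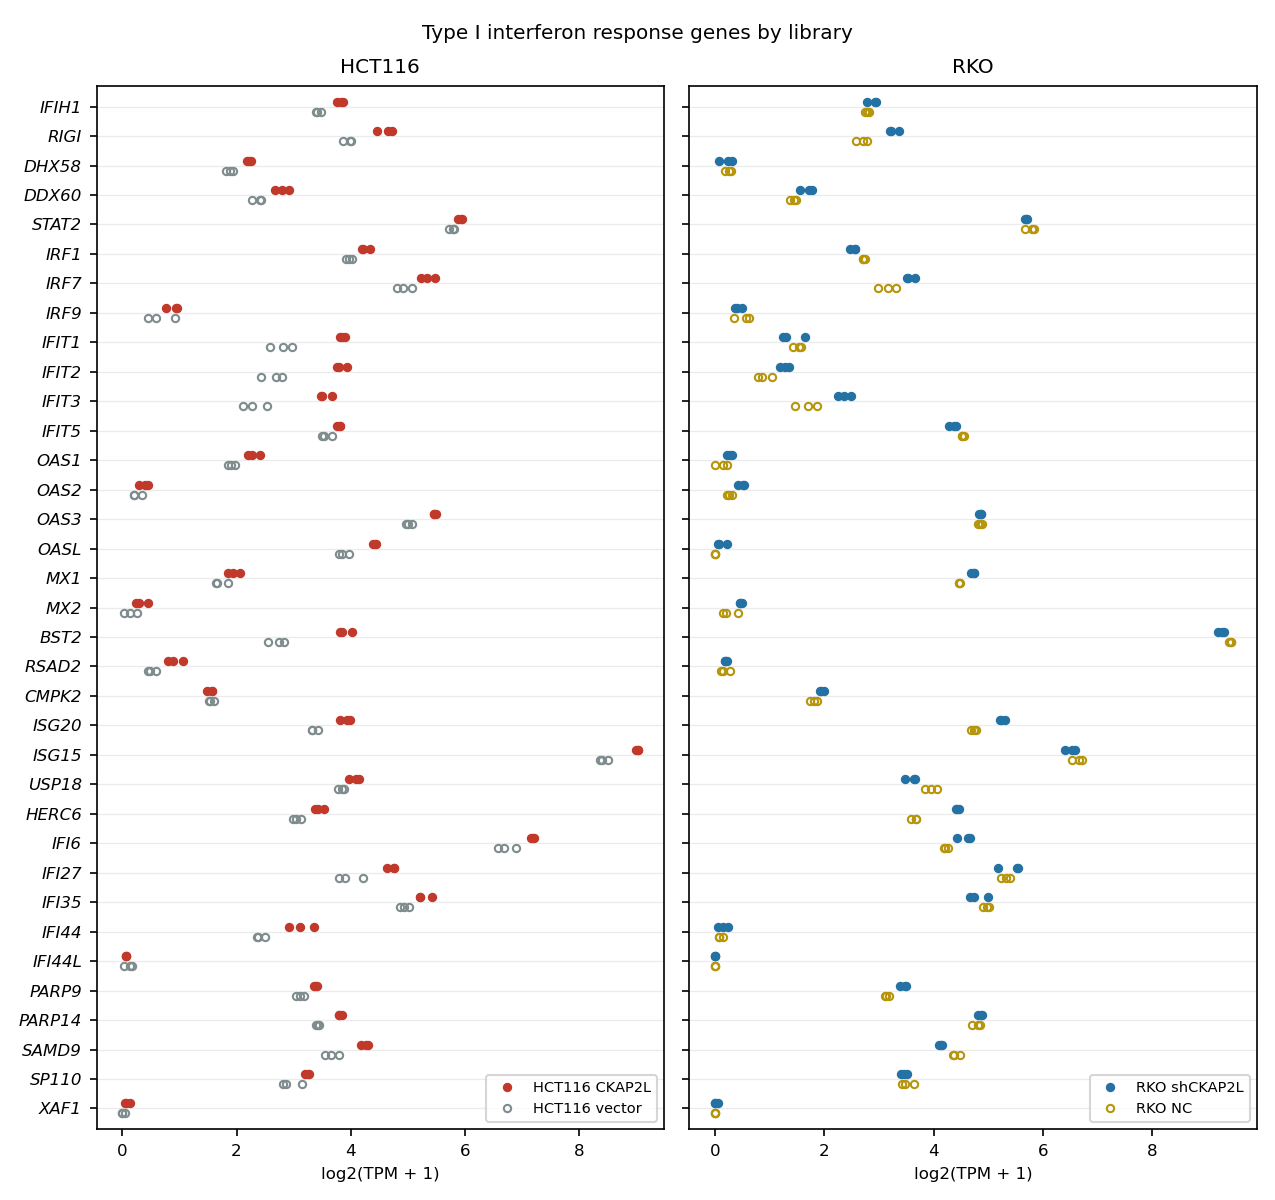
Levels of the 35 genes in each of the 12 libraries, on a log2(TPM + 1) axis, with HCT116 at left and RKO at right, 1 point per library (filled: CKAP2L or shCKAP2L, open: vector or NC). In HCT116 the filled points lie to the right of the open ones for nearly every gene above 1 TPM, while in RKO BST2 is the highest gene, at 593 TPM or more, and its filled points lie to the left.

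The most abundant members were not the same in the lines. In HCT116, ISG15 and IFI6 were the only members at 100 TPM or more in either group, and in RKO BST2 was. Members summed to 1119 to 1133 TPM in CKAP2L and 753 to 802 TPM in vector libraries of HCT116. In RKO the sum was 1060 to 1138 TPM with shCKAP2L and 1141 to 1173 TPM with NC; these ranges do not overlap, and BST2 was the largest part of each sum. Without BST2 and ISG15 the sums were 593 to 596 TPM in CKAP2L and 408 to 440 TPM in vector libraries, and 383 to 408 TPM with shCKAP2L and 356 to 369 TPM with NC, so that the RKO order turned. Members with a group mean under 1 TPM numbered 6 in CKAP2L and 6 in vector libraries, and 10 in shCKAP2L and 11 in NC libraries. IRF9, OAS2, MX2, RSAD2, IFI44L and XAF1 were under the filter in both lines, and DHX58, OAS1, OASL and IFI44 in RKO alone, so these were not tested there.

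Members encoding cytosolic RNA sensors rose in HCT116, 4 of 4, and 2 of 3 tested rose in RKO. For this and the other role groups, the shares over all genes tested were 16.4% higher and 4.26% lower in HCT116, and 26.4% and 42.1% in RKO. RIGI (chr9:32455705-32526324, minus strand, by GENCODE release 29), which encodes RIG-I, a sensor of short and 5′-triphosphate RNA, had 25.3, 24.2 and 21.1 TPM in CKAP2L libraries, against 13.6, 15.1 and 14.9 TPM in vector libraries (log2 fold change 0.66 ± 0.07, limma adjusted p = 1.3e-05). In RKO it had 8.17, 9.33 and 8.29 TPM with shCKAP2L, against 5.85, 5.54 and 4.98 TPM with NC (log2 fold change 0.57 ± 0.06, limma adjusted p = 1.08e-06). The groups did not overlap in either line, and the mean ratio was 1.62 in HCT116 and 1.58 in RKO. DDX60, a helicase reported as a cofactor of RIG-I, had 5.96, 5.38 and 6.57 TPM with CKAP2L, against 4.30, 3.80 and 4.38 TPM with vector (log2 fold change 0.43 ± 0.09, limma adjusted p = 0.00339). With shCKAP2L it had 1.94, 2.31 and 2.43 TPM, against 1.57, 1.71 and 1.80 TPM with NC (log2 fold change 0.26 ± 0.08, limma adjusted p = 0.00976), again without overlap. That RKO call was lost under quantile normalization (log2 fold change 0.18, adjusted p = 0.0681). IFIH1, which encodes the long double-stranded RNA sensor MDA5, averaged 13.1 ± 0.57 TPM in CKAP2L and 9.75 ± 0.36 TPM in vector libraries (SD, n = 3 each; log2 fold change 0.39 ± 0.06, limma adjusted p = 0.000529). In RKO IFIH1 averaged 6.40 ± 0.47 TPM with shCKAP2L and 5.89 ± 0.19 TPM with NC, overlapping and without a call (log2 fold change 0.10 ± 0.06, limma adjusted p = 0.136). DHX58, which encodes LGP2, a regulator of both sensors, averaged 3.64 ± 0.12 TPM in CKAP2L and 2.68 ± 0.17 TPM in vector libraries (log2 fold change 0.34 ± 0.09, limma adjusted p = 0.0154). It was at 0.24 TPM or less in every RKO library. Without CKAP2L replicate 2 or without vector replicate 1 the DHX58 call was lost (0.32, adjusted p = 0.0579, and 0.30, adjusted p = 0.0577). IFIH1 rose in RKO under median-of-ratios rescaling (0.15, adjusted p = 0.0293) and without shCKAP2L replicate 1 (0.15, adjusted p = 0.042).

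Of the transcription factors, IRF7 moved most. IRF7, the amplifier of interferon gene transcription, had 36.7, 43.5 and 39.3 TPM in CKAP2L libraries, against 27.0, 29.2 and 32.7 TPM in vector libraries (log2 fold change 0.41 ± 0.07, limma adjusted p = 0.000896). In RKO it had 10.4, 11.7 and 10.6 TPM with shCKAP2L, against 8.02, 8.99 and 6.92 TPM with NC (log2 fold change 0.41 ± 0.07, limma adjusted p = 0.000106). The increases were of like size and without overlap in both lines. IRF1, which is induced by interferon gamma and NF-kB as well, rose in HCT116 (17.5, 17.3 and 19.2 TPM with CKAP2L, against 14.7, 14.2 and 15.3 TPM with vector, log2 fold change 0.27 ± 0.06, limma adjusted p = 0.00525). It fell in RKO, with 4.88, 4.56 and 4.89 TPM in shCKAP2L libraries, against 5.72, 5.54 and 5.54 TPM in NC libraries (log2 fold change -0.19 ± 0.06, limma adjusted p = 0.00594). Neither pair of groups overlapped. The IRF1 transcript shares 14.6% of its 50-base words with the antisense gene IRF1-AS1, whose mean level was 1.20 TPM in CKAP2L, 0.81 in vector, 0.60 in shCKAP2L and 0.65 TPM in NC libraries, and the sources used here do not give whether counting used strand. STAT2, a subunit of the interferon-activated complex, averaged 59.6 ± 1.5 TPM in CKAP2L and 53.8 ± 1.5 TPM in vector libraries (SD, n = 3 each; log2 fold change 0.15 ± 0.04, limma adjusted p = 0.0178), the smallest increase among the called members. With shCKAP2L it averaged 50.8 ± 0.51 TPM and with NC 53.8 ± 3.4 TPM (log2 fold change -0.08 ± 0.04, limma adjusted p = 0.0841). The HCT116 call of STAT2 was lost in 7 of 17 alternatives, 3 of them without CKAP2L replicate 1 (0.14, adjusted p = 0.0799), CKAP2L replicate 2 (0.14, adjusted p = 0.0763) or vector replicate 1 (0.13, adjusted p = 0.0791). Without NC replicate 3 STAT2 fell in RKO (-0.13, adjusted p = 0.00153). IRF9, its DNA-binding partner, was listed below 1 TPM in all 12 libraries, at 0.91, 0.95 and 0.69 TPM with CKAP2L, 0.50, 0.37 and 0.89 TPM with vector, 0.29, 0.40 and 0.32 TPM with shCKAP2L and 0.54, 0.27 and 0.48 TPM with NC. Every 50-base word of its longest transcript also lies in the gene ENSG00000259529, listed at group means of 0.73 to 0.89 TPM, and the sources used here do not give to which gene such reads were assigned.

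The IFIT genes, which encode RNA-binding proteins that hold back translation of foreign mRNA, lie side by side on chromosome 10. IFIT2 (chr10:89283694-89309276), IFIT3 (chr10:89327894-89340971), IFIT1 (chr10:89392546-89406486) and IFIT5 (chr10:89414586-89421001) are all on the plus strand. All 4 rose in HCT116, with a median log2 fold change of 1.13. IFIT3, which stabilizes IFIT1, had 11.7, 10.1 and 10.3 TPM in CKAP2L libraries, against 3.33, 4.77 and 3.84 TPM in vector libraries (log2 fold change 1.24 ± 0.10, limma adjusted p = 1.41e-06). IFIT2 had 12.9, 14.3 and 12.6 TPM with CKAP2L, against 4.40, 5.49 and 5.98 TPM with vector (log2 fold change 1.19 ± 0.09, limma adjusted p = 8.55e-07). IFIT1, the sensor of mRNA that lacks cap methylation, had 13.1, 13.4 and 14.0 TPM with CKAP2L, against 6.06, 5.02 and 6.82 TPM with vector (log2 fold change 1.06 ± 0.09, limma adjusted p = 1.61e-06). For these 3 genes the lowest CKAP2L library lay far above the highest vector library, and the mean ratios were 2.69, 2.51 and 2.3. IFIT5 moved less, with 12.5, 13.1 and 13.0 TPM in CKAP2L libraries, against 10.3, 10.6 and 11.8 TPM in vector libraries (log2 fold change 0.22 ± 0.06, limma adjusted p = 0.0227). The IFIT5 call was lost in 9 of 17 alternatives, 5 of them without 1 library: CKAP2L replicate 1 (0.24, adjusted p = 0.051), 2 (0.21, adjusted p = 0.0798) or 3 (0.22, adjusted p = 0.0667), or vector replicate 1 (0.19, adjusted p = 0.0888) or 2 (0.21, adjusted p = 0.0718).

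In RKO, 2 of the 4 IFIT genes rose, 1 fell and 1 did not pass. IFIT3 had 3.78, 4.59 and 4.15 TPM in shCKAP2L libraries, against 2.63, 1.77 and 2.23 TPM in NC libraries (log2 fold change 0.69 ± 0.09, limma adjusted p = 6.78e-06), a mean ratio of 1.89. IFIT2 had 1.29, 1.54 and 1.43 TPM with shCKAP2L, against 0.73, 0.82 and 1.06 TPM with NC (log2 fold change 0.37 ± 0.09, limma adjusted p = 0.00183). Both rose without overlap, at levels near 1 TPM for IFIT2, whose NC mean of 0.87 TPM was under the filter that its shCKAP2L values carried it past. IFIT1 had 1.47, 2.12 and 1.37 TPM with shCKAP2L, against 1.68, 1.98 and 1.91 TPM with NC (log2 fold change -0.12 ± 0.10, limma adjusted p = 0.311). Its groups overlapped, with shCKAP2L replicate 2 the highest of the 6 libraries, and without that library IFIT1 fell (-0.24, adjusted p = 0.0322). IFIT5 fell, with 19.7, 18.5 and 20.1 TPM in shCKAP2L libraries, against 22.6, 22.1 and 21.8 TPM in NC libraries (log2 fold change -0.18 ± 0.04, limma adjusted p = 0.000937), and the groups did not overlap.

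**Figure D2:**
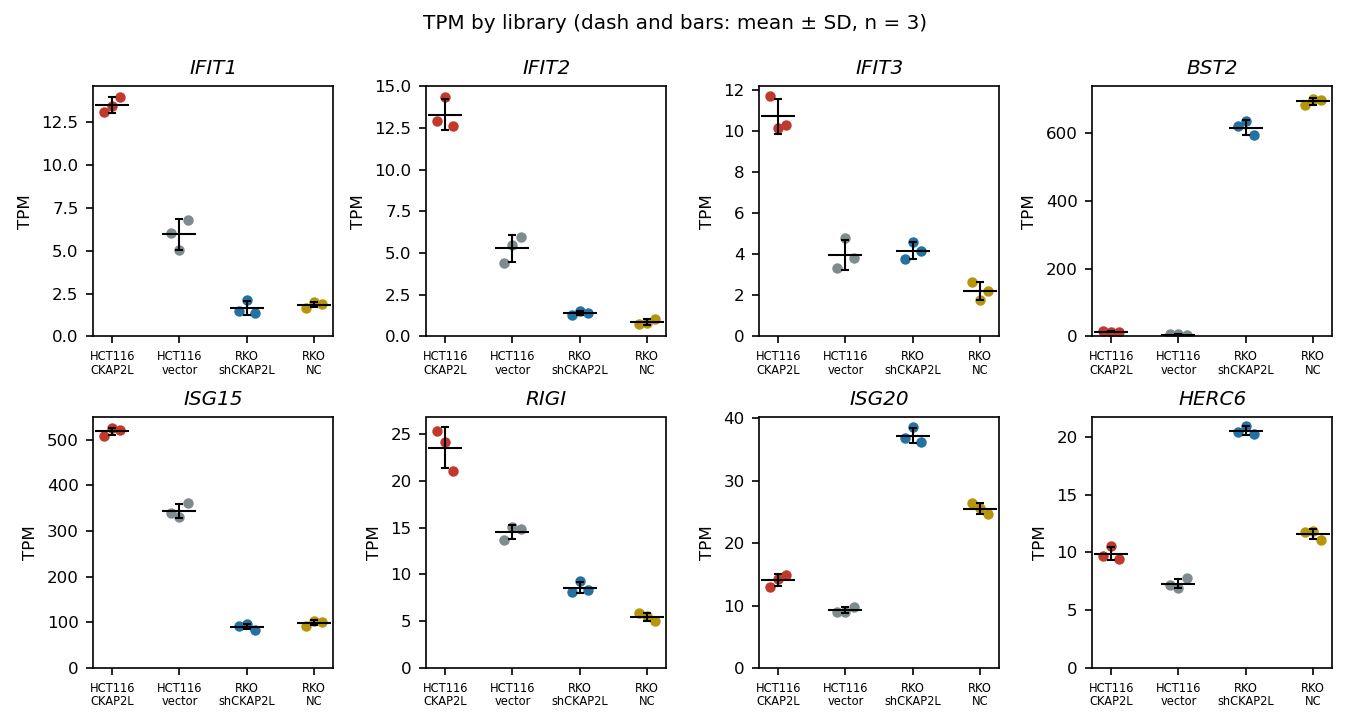
TPM per library of 8 members in the 4 groups, each panel with its own linear axis from 0 (points: libraries, dash and bars: mean ± SD, n = 3). IFIT1, IFIT2, IFIT3, ISG15 and RIGI are highest in HCT116 CKAP2L libraries, whereas BST2 is far higher in RKO than in HCT116 and HERC6 and ISG20 are highest in RKO shCKAP2L libraries.

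The OAS family, whose products make the short oligoadenylates that switch on RNase L, was higher in HCT116 for the 3 members tested there. OAS3, which makes the oligoadenylates that activate RNase L most readily, had 43.1, 44.0 and 43.2 TPM in CKAP2L libraries, against 30.9, 30.4 and 32.7 TPM in vector libraries (log2 fold change 0.46 ± 0.04, limma adjusted p = 6.77e-06). OASL, a family member without that enzyme activity that promotes RIG-I signalling, had 20.4, 20.9 and 20.0 TPM with CKAP2L, against 14.7, 12.9 and 13.4 TPM with vector (log2 fold change 0.55 ± 0.06, limma adjusted p = 1.71e-05). The groups of both genes were well apart. OAS1 averaged 3.90 ± 0.37 TPM in CKAP2L and 2.75 ± 0.15 TPM in vector libraries (SD, n = 3 each; log2 fold change 0.39 ± 0.09, limma adjusted p = 0.0094). In RKO only OAS3 was tested, at 28.1, 27.4 and 28.3 TPM with shCKAP2L and 28.5, 27.9 and 27.1 TPM with NC (log2 fold change 0.01 ± 0.03, limma adjusted p = 0.846). Its groups overlapped, and it passed under quantile normalization alone (0.07, adjusted p = 0.0495). OASL was listed at 0 in the 3 NC libraries and at 0.16 TPM or less with shCKAP2L, and OAS1 was at 0.24 TPM or less in each RKO library. OAS2 stayed under 0.5 TPM in all 12 libraries, beside OAS3 on chromosome 12.

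Among the GTPases, membrane and nucleotide effectors, BST2 and ISG20 changed in both lines. BST2 (chr19:17402939-17405648, minus strand) encodes tetherin, which holds budding virus particles on the cell surface. It had 15.2, 13.4 and 13.1 TPM in CKAP2L libraries, against 5.74, 6.16 and 4.86 TPM in vector libraries (log2 fold change 1.18 ± 0.08, limma adjusted p = 4.5e-07). In RKO it fell, to 619, 635 and 593 TPM with shCKAP2L, against 681, 700.0 and 698 TPM with NC (log2 fold change -0.17 ± 0.03, limma adjusted p = 3.71e-05). The groups overlapped in neither line, and the ratio of means was 2.48 in HCT116 and 0.89 in RKO, so a large relative change at a low level stood beside a small one at a high level. ISG20, an exonuclease that degrades single-stranded RNA, had 13.0, 14.2 and 14.9 TPM with CKAP2L, against 9.04, 9.00 and 9.78 TPM with vector (log2 fold change 0.55 ± 0.07, limma adjusted p = 5.68e-05). With shCKAP2L it had 36.9, 38.7 and 36.2 TPM, against 26.4, 25.6 and 24.7 TPM with NC (log2 fold change 0.53 ± 0.04, limma adjusted p = 7.08e-09). ISG20 thus rose by like amounts, with mean ratios of 1.52 in HCT116 and 1.46 in RKO and no overlap of groups in either line.

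MX1, a dynamin-like GTPase that blocks influenza virus, was low in HCT116, with 3.19, 2.83 and 2.62 TPM in CKAP2L libraries and 2.11, 2.14 and 2.60 TPM in vector libraries, and did not pass (log2 fold change 0.24 ± 0.10, limma adjusted p = 0.108). MX1 passed without vector replicate 3, its highest vector library (0.31, adjusted p = 0.0477), and in the fit over 12 libraries (0.24, adjusted p = 0.0104). In RKO, MX1 rose, with 24.9, 25.8 and 25.6 TPM in shCKAP2L libraries, against 21.2, 21.0 and 21.3 TPM in NC libraries (log2 fold change 0.25 ± 0.04, limma adjusted p = 1.1e-05). CMPK2, a mitochondrial nucleotide kinase, was near 2 TPM in HCT116, at 1.92 ± 0.098 TPM in CKAP2L and 1.93 ± 0.096 TPM in vector libraries (SD, n = 3 each; log2 fold change 0.00 ± 0.10, limma adjusted p = 0.985). In RKO it averaged 2.87 ± 0.12 TPM with shCKAP2L and 2.49 ± 0.15 TPM with NC (log2 fold change 0.15 ± 0.07, limma adjusted p = 0.061). No HCT116 alternative called CMPK2, while in RKO its groups did not overlap and it rose in 5 of 16 alternatives. These were no filter (0.15, adjusted p = 0.0467), median-of-ratios rescaling (0.19, adjusted p = 0.0142), TPM without mitochondrial genes (0.19, adjusted p = 0.0273), no trend (0.15, adjusted p = 0.0113) and without NC replicate 1 (0.18, adjusted p = 0.0484). CMPK2 lies head to head with RSAD2, which encodes the antiviral radical enzyme viperin. RSAD2, under the filter, was listed at 0.86, 1.08 and 0.74 TPM with CKAP2L and 0.40, 0.50 and 0.36 TPM with vector, and at 0.21 TPM or less in each RKO library. MX2, a GTPase that acts on HIV, was at 0.40 TPM or less in all 12 libraries.

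The ISG15 system is a ubiquitin-like modifier with its ligases and its protease. ISG15 (chr1:1001138-1014540, plus strand), the modifier itself and the most abundant member in HCT116, had 509, 525 and 520.5 TPM in CKAP2L libraries, against 339, 329.9 and 361 TPM in vector libraries (log2 fold change 0.59 ± 0.03, limma adjusted p = 7.9e-08). This was the smallest adjusted p of any member in HCT116, and the groups did not overlap. In RKO, ISG15 had 92.0, 95.3 and 83.9 TPM with shCKAP2L, against 92.3, 104 and 101 TPM with NC (log2 fold change -0.13 ± 0.05, limma adjusted p = 0.0209). The RKO groups overlapped, and this decrease was lost in 8 of 17 alternatives: the 3 rescalings, no filter, no trend, and without shCKAP2L replicate 3 (-0.08, adjusted p = 0.123), NC replicate 2 (-0.09, adjusted p = 0.0796) or NC replicate 3 (-0.12, adjusted p = 0.082). USP18, the protease that removes ISG15 and also damps the receptor, had 16.7, 16.1 and 14.8 TPM with CKAP2L, against 13.4, 12.7 and 13.8 TPM with vector (log2 fold change 0.24 ± 0.06, limma adjusted p = 0.0149). It had 10.2, 11.7 and 11.5 TPM with shCKAP2L, against 15.6, 14.6 and 13.4 TPM with NC (log2 fold change -0.36 ± 0.06, limma adjusted p = 6.94e-05). USP18 was thus the member with the largest decrease in RKO on the log2 scale, while its HCT116 call was lost under quantile normalization and without CKAP2L replicate 1 (0.20, adjusted p = 0.0798), CKAP2L replicate 2 (0.23, adjusted p = 0.0548) or vector replicate 2 (0.21, adjusted p = 0.0586). It shares 23.0% of its 50-base words with USP41, listed at group means of 0.20 TPM or less. HERC6, an interferon-induced HECT ligase family member that attaches ISG15 in mice, had 9.72, 10.6 and 9.41 TPM with CKAP2L, against 7.21, 6.93 and 7.74 TPM with vector (log2 fold change 0.39 ± 0.07, limma adjusted p = 0.00148). In RKO it had 20.4, 21.0 and 20.2 TPM with shCKAP2L, against 11.8, 11.9 and 11.1 TPM with NC (log2 fold change 0.78 ± 0.04, limma adjusted p = 3.25e-10). HERC6 had the smallest adjusted p of any member in RKO and the largest change of log2(TPM + 1), with a mean ratio of 1.77. The mean ratio of IFIT3 was larger, at 1.89, and over the alternatives the log2 fold change reached 0.90 for IFIT3 and 0.83 for HERC6.

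Of the IFI genes, 4 of 4 tested rose in HCT116. IFI6, a small membrane protein that protects the endoplasmic reticulum against flavivirus replication, had 148, 142 and 146 TPM in CKAP2L libraries, against 94.4, 118 and 102 TPM in vector libraries (log2 fold change 0.47 ± 0.06, limma adjusted p = 9.85e-05). In RKO it rose too, with 23.7, 24.6 and 20.6 TPM in shCKAP2L libraries, against 17.3, 17.5 and 18.2 TPM in NC libraries (log2 fold change 0.36 ± 0.05, limma adjusted p = 2.26e-05). The groups did not overlap in either line. IFI35, a leucine zipper protein that binds NMI, had 36.1, 36.1 and 42.1 TPM with CKAP2L, against 31.6, 29.6 and 28.1 TPM with vector (log2 fold change 0.34 ± 0.06, limma adjusted p = 0.00157). With shCKAP2L it had 25.8, 30.9 and 24.6 TPM, against 28.9, 31.2 and 30.6 TPM with NC (log2 fold change -0.16 ± 0.06, limma adjusted p = 0.0326). The RKO groups of IFI35 overlapped, and the call was lost in 10 of 17 alternatives: the 3 rescalings, no filter, no trend, the fit over 12 libraries, and without shCKAP2L replicate 1 (-0.13, adjusted p = 0.104), shCKAP2L replicate 3 (-0.09, adjusted p = 0.17), NC replicate 2 (-0.14, adjusted p = 0.0773) or NC replicate 3 (-0.15, adjusted p = 0.102). IFI27, a mitochondrial and nuclear-envelope protein often used as a marker of interferon exposure, averaged 25.3 ± 1.3 TPM in CKAP2L and 14.7 ± 2.4 TPM in vector libraries (SD, n = 3 each; log2 fold change 0.75 ± 0.08, limma adjusted p = 3.56e-05). In RKO it averaged 42.1 ± 5.8 TPM with shCKAP2L and 39.1 ± 2.3 TPM with NC (log2 fold change 0.10 ± 0.07, limma adjusted p = 0.251), where shCKAP2L replicate 3 was the lowest of the 6 libraries, and without it IFI27 rose (0.21, adjusted p = 0.00059). IFI44 averaged 7.84 ± 1.4 TPM in CKAP2L and 4.32 ± 0.27 TPM in vector libraries (log2 fold change 0.72 ± 0.10, limma adjusted p = 0.000212) and was at 0.18 TPM or less in each RKO library. Its neighbour IFI44L was at 0.13 TPM or less in HCT116 and listed at 0 in the 6 RKO libraries.

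The remaining members are PARP9, PARP14, SAMD9, SP110 and XAF1. SAMD9, an antiviral and growth-restraining protein that cleaves transfer RNA, had 18.7, 18.2 and 17.2 TPM in CKAP2L libraries, against 10.8, 11.6 and 12.8 TPM in vector libraries (log2 fold change 0.58 ± 0.07, limma adjusted p = 3.55e-05). In RKO it fell, to 16.1, 16.8 and 16.6 TPM with shCKAP2L, against 21.3, 19.8 and 19.6 TPM with NC (log2 fold change -0.28 ± 0.04, limma adjusted p = 2.67e-05). The groups did not overlap in either line. PARP9, which acts with the ubiquitin ligase DTX3L, had 9.69, 9.39 and 9.31 TPM with CKAP2L, against 7.23, 8.10 and 7.66 TPM with vector (log2 fold change 0.27 ± 0.07, limma adjusted p = 0.0104). With shCKAP2L it had 9.43, 10.1 and 10.3 TPM, against 8.13, 7.72 and 7.66 TPM with NC (log2 fold change 0.31 ± 0.05, limma adjusted p = 5.79e-05), and both increases were without overlap. PARP14, a mono-ADP-ribosyltransferase, averaged 13.1 ± 0.33 TPM in CKAP2L and 9.73 ± 0.18 TPM in vector libraries (SD, n = 3 each; log2 fold change 0.39 ± 0.06, limma adjusted p = 0.000348). In RKO it averaged 28.0 ± 0.71 TPM with shCKAP2L and 26.8 ± 1.5 TPM with NC (log2 fold change 0.06 ± 0.04, limma adjusted p = 0.193), and it passed there under each of the 3 rescalings (0.10 to 0.13, adjusted p of 0.00522 to 0.032). SP110, a nuclear body protein whose exons overlap an antisense gene over 18.4% of their bases, averaged 8.46 ± 0.25 TPM in CKAP2L and 6.74 ± 0.99 TPM in vector libraries (log2 fold change 0.30 ± 0.09, limma adjusted p = 0.0253). In RKO SP110 averaged 9.96 ± 0.39 TPM with shCKAP2L and 10.5 ± 0.91 TPM with NC (log2 fold change -0.06 ± 0.06, limma adjusted p = 0.336). The HCT116 call of SP110 was lost in 9 of 17 alternatives, 4 of them without CKAP2L replicate 1 (0.28, adjusted p = 0.0885), CKAP2L replicate 3 (0.29, adjusted p = 0.07), vector replicate 1 (0.26, adjusted p = 0.0848) or vector replicate 2 (0.23, adjusted p = 0.0993). XAF1, a proapoptotic protein, was at 0.10 TPM or less in all 12 libraries.

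**Figure D3:**
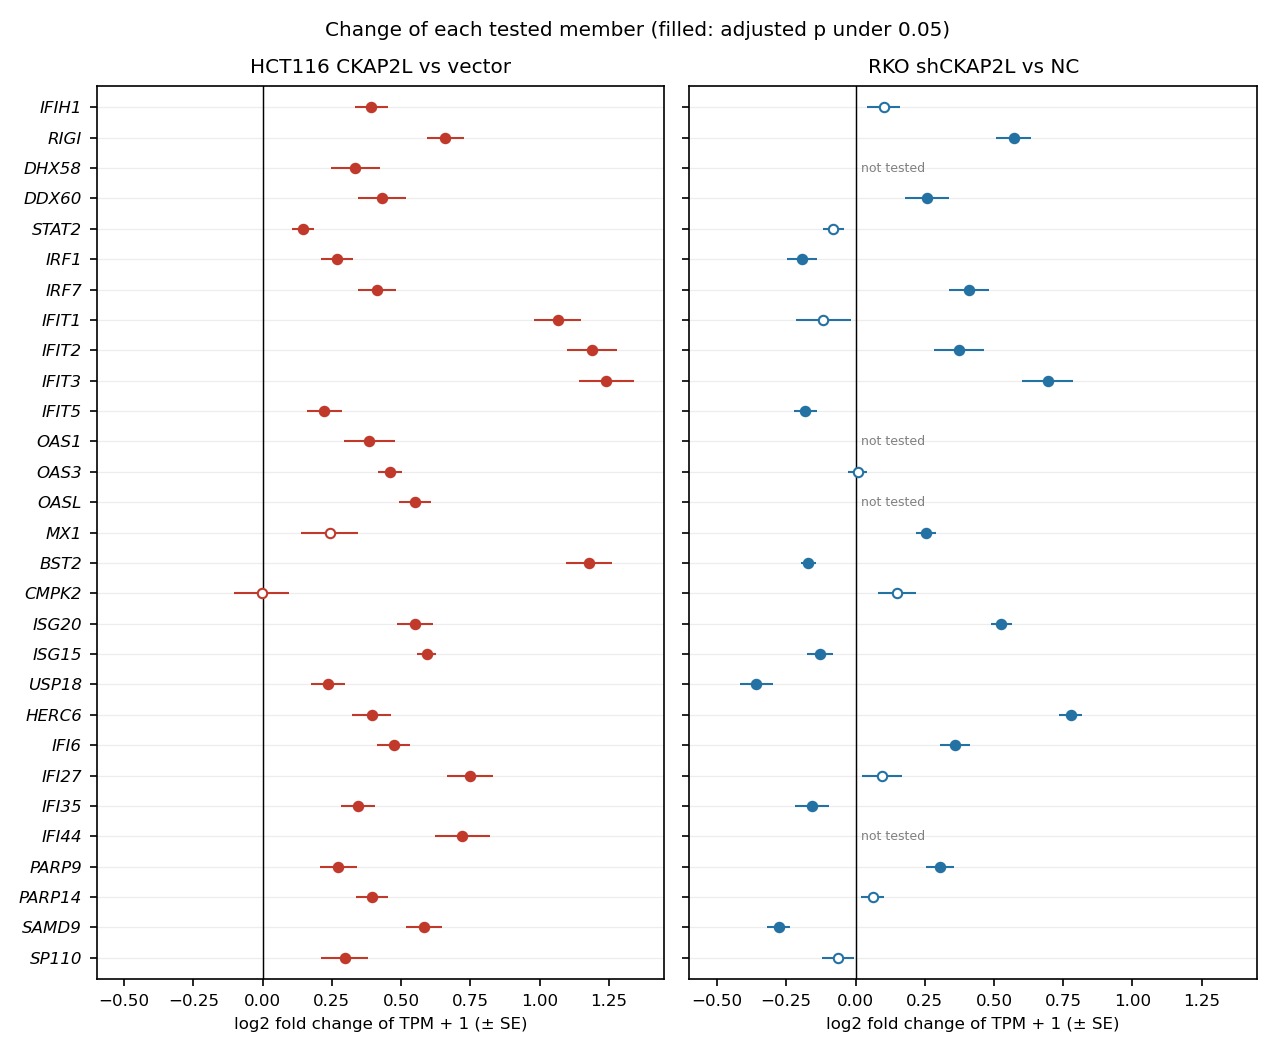
Log2 fold change of TPM + 1 with its standard error for each member tested in HCT116 (CKAP2L over vector, left) and RKO (shCKAP2L over NC, right), filled where the adjusted p was under 0.05. At left 27 of 29 points are filled and lie right of 0, and at right 10 filled points lie right of 0 and 7 lie left of it.

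Set side by side, 23 members were both higher in HCT116 and tested in RKO. Of these 9 also rose with shCKAP2L (RIGI, DDX60, IRF7, IFIT3, IFIT2 with the limit given above, ISG20, HERC6, IFI6 and PARP9), 7 fell (IRF1, IFIT5, BST2, ISG15, USP18, IFI35 and SAMD9) and 7 were not called (IFIH1, STAT2, IFIT1, OAS3, IFI27, PARP14 and SP110). As given above, some alternatives ended the RKO calls of ISG15, IFI35 and DDX60 and the HCT116 calls of IFIT5, USP18, STAT2 and SP110. Among the 1856 genes that rose in HCT116 and were tested in both lines, 30.6% rose and 43.5% fell in RKO. Where a promoter entry exists, the response element core was present for 5 of 7 members that rose in both lines. It was present for 4 of 6 that moved in opposite directions and 5 of 7 higher in HCT116 without an RKO call. Of 2 that rose in HCT116 and were not tested in RKO, 1 had it. Of the members that rose in both, HERC6 and RIGI lacked it, and of those that moved in opposite directions, IFI35 and IRF1 did.

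The log2 fold changes of CKAP2L over vector in HCT116 and of shCKAP2L over NC in RKO were also summed per gene, and the sum was tested against 0 in a limma model of the 12 libraries. It is 0 for a gene that moved by equal amounts in opposite directions. The manipulations were not of equal size. The mean ratio of CKAP2L itself was 16.2 in HCT116 (log2 fold change 3.93 ± 0.05) and 0.321 in RKO (-1.53 ± 0.05), and its own sum was 2.40. A sum other than 0 therefore says that the changes were unequal or in the same direction, not that a gene's change relative to that of CKAP2L differed between the lines. It was called for 18 of the 25 members tested, each with a positive sign, while 54.5% of the 11024 genes tested were called, 27.6% positive and 27.0% negative. The sum was highest for IFIT3 (1.94 ± 0.15, adjusted p = 5e-09), IFIT2 (1.57 ± 0.13, adjusted p = 1.74e-08, in RKO with the limit of the filter), RIGI (1.23 ± 0.10, adjusted p = 9.87e-09), HERC6 (1.17 ± 0.08, adjusted p = 7.02e-10) and ISG20 (1.08 ± 0.07, adjusted p = 1.02e-09). For BST2 it was 1.01, since the increase in HCT116 was larger than the decrease in RKO, and likewise 0.46 for ISG15 and 0.30 for SAMD9. For IRF1 (0.08 ± 0.08, adjusted p = 0.417), IFIT5 (0.04 ± 0.07, adjusted p = 0.641), USP18 (-0.12 ± 0.09, adjusted p = 0.265) and IFI35 (0.19 ± 0.10, adjusted p = 0.124), which moved in opposite directions, the sum did not differ from 0 beyond the spread, and neither did that of STAT2, SP110 and CMPK2. Without shCKAP2L replicate 3 the sum of IFI35 passed (0.25, adjusted p = 0.0421), as did that of SP110 without vector replicate 3 (0.34, adjusted p = 0.00365) or NC replicate 1 (0.30, adjusted p = 0.0312). Line and manipulation cannot be told apart in this comparison.

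**Figure D4:**
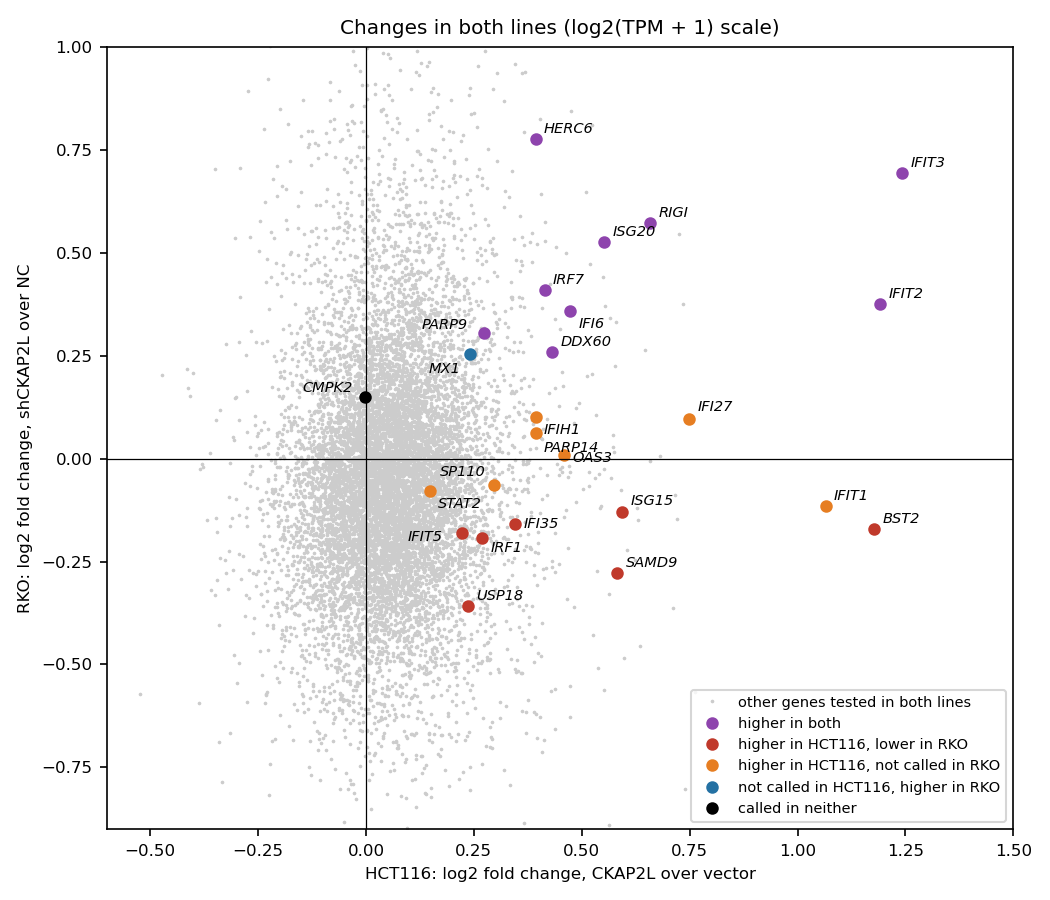
Log2 fold change in HCT116 (CKAP2L over vector, horizontal) against that in RKO (shCKAP2L over NC, vertical) for the 11023 genes tested in both lines without CKAP2L (grey, 90 of them outside the axes) and the 25 members (coloured by call). Members lie to the right of the vertical 0 line except CMPK2, and spread above and below the horizontal one, between 0.78 for HERC6 and -0.36 for USP18.

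The other genes of the pathway were looked at as 6 lists, whose counts stand beside 16.4% higher and 4.26% lower over all genes tested in HCT116, and 26.4% and 42.1% in RKO. Of 10 interferon genes, 2 passed the filter in HCT116 and 1 rose, IFNL1, which encodes interferon lambda 1. IFNL1 had 1.50, 1.67 and 1.74 TPM in CKAP2L libraries, against 0.60, 0.25 and 0.81 TPM in vector libraries (log2 fold change 0.78 ± 0.14, limma adjusted p = 0.00174). Its vector mean of 0.55 TPM was under the filter that its CKAP2L values carried it past, so it could be tested only because it was higher with CKAP2L. IFNE, the other interferon gene that passed the filter, was not called (log2 fold change 0.35 ± 0.16, limma adjusted p = 0.145), and its groups overlapped. IFNL3, under the filter, was listed at 0.93, 0.64 and 1.00 TPM with CKAP2L and 0.12, 0.07 and 0.08 TPM with vector. IFNL2, also under the filter, overlapped between groups, at 0.80, 1.49 and 0.44 TPM with CKAP2L and 0.57, 0.37 and 0.61 TPM with vector. IFNB1, the type I interferon most cells make first, was listed at 0.60, 0 and 0.80 TPM with CKAP2L and at 0 in the 3 vector libraries. In RKO no interferon gene passed the filter, and IFNB1, IFNL1, IFNL2 and IFNL3 were listed at 0 in each library. IFNE, IFNL2, IFNL3 and IFNB1 were named after their values were seen, and at these levels TPM says nothing of the number of reads.

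Of 10 receptors and kinases, 3 rose and 0 fell in HCT116. Among them were IFNGR2, a subunit of the interferon gamma receptor (log2 fold change 0.24 ± 0.05, limma adjusted p = 0.00206), and the kinase gene JAK1 (log2 fold change 0.15 ± 0.05, limma adjusted p = 0.0406), the last with a call lost in 10 of 17 alternatives, 5 of them without 1 library: CKAP2L replicate 1 (0.13, adjusted p = 0.152), 2 (0.16, adjusted p = 0.0807) or 3 (0.16, adjusted p = 0.0775), or vector replicate 1 (0.12, adjusted p = 0.152) or 2 (0.12, adjusted p = 0.134). In RKO 2 rose and 4 fell, shares near those over all genes tested there (26.4% and 42.1%). JAK1 averaged 78.5 ± 2.1 TPM with shCKAP2L and 60.3 ± 0.38 TPM with NC (SD, n = 3 each; log2 fold change 0.37 ± 0.03, limma adjusted p = 2e-08), and IFNAR2 averaged 18.3 ± 0.38 TPM with shCKAP2L and 24.0 ± 0.74 TPM with NC (log2 fold change -0.38 ± 0.04, limma adjusted p = 3.92e-07).

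Of 12 tested adaptors and kinases of nucleic acid sensing, 5 rose and 0 fell in HCT116. TRIM25, a ubiquitin ligase that activates RIG-I (log2 fold change 0.38 ± 0.03, limma adjusted p = 3.81e-06), STING1, the adaptor of cytosolic DNA sensing (log2 fold change 0.41 ± 0.04, limma adjusted p = 1.6e-05), and EIF2AK2, which encodes the RNA-activated kinase PKR (log2 fold change 0.35 ± 0.05, limma adjusted p = 0.000407), were the first by adjusted p. In RKO 5 of 13 rose and 7 fell, beside 26.4% and 42.1% over all genes tested. The transcription factor IRF3 fell (log2 fold change -0.40 ± 0.03, limma adjusted p = 6.12e-08), TRIM25 fell (log2 fold change -0.40 ± 0.04, limma adjusted p = 1.34e-07), and ADAR, which edits double-stranded RNA, rose (log2 fold change 0.29 ± 0.03, limma adjusted p = 1.85e-07). STING1 averaged 46.5 ± 0.94 TPM in CKAP2L and 34.7 ± 1.2 TPM in vector libraries of HCT116 and was at 0.13 TPM or less in each RKO library. CGAS, the DNA sensor upstream of STING1, showed the other pattern, at 0.05 TPM or less in HCT116 and at 27.2 ± 0.72 TPM with shCKAP2L and 31.5 ± 0.87 TPM with NC in RKO. CGAS was named after its values were seen.

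Of 28 tested interferon-stimulated genes outside the module, 12 rose and 0 fell in HCT116, with a median log2 fold change of 0.14. The first by adjusted p were PLSCR1, a phospholipid scramblase (log2 fold change 0.46 ± 0.04, limma adjusted p = 7.43e-06), HERC5, the human ligase for ISG15 (log2 fold change 0.49 ± 0.06, limma adjusted p = 4.02e-05), and NMI, the partner of IFI35 (log2 fold change 0.57 ± 0.08, limma adjusted p = 0.000363). In RKO 11 of 27 rose and 5 fell, led by TRAFD1, an inhibitor of innate signalling (log2 fold change 0.79 ± 0.04, limma adjusted p = 9.55e-11), DTX3L, the partner of PARP9 (log2 fold change 0.57 ± 0.04, limma adjusted p = 7.7e-09), and the peptidase LAP3 (log2 fold change 0.31 ± 0.03, limma adjusted p = 2.54e-07). DTX3L also rose in HCT116 (log2 fold change 0.42 ± 0.07, limma adjusted p = 0.000811), as did PARP9, so that this pair, whose products act as a complex, rose in both lines. DTX3L, on the opposite strand, overlaps 2.4% of the exon bases of PARP9, and the sources do not give whether counting used strand. DTX3L was named for HCT116 after its values were seen. Of 13 genes that respond mainly to interferon gamma, 3 were tested in each line. In HCT116 WARS1, a transfer RNA synthetase (log2 fold change 0.19 ± 0.04, limma adjusted p = 0.00295), and CD274, which encodes the checkpoint ligand PD-L1 (log2 fold change 0.41 ± 0.09, limma adjusted p = 0.00698), rose, and in RKO CD274 fell (log2 fold change -0.27 ± 0.02, limma adjusted p = 6.11e-08). Of 13 negative regulators tested in HCT116, 0 were called by limma and 2 had an unadjusted p under 0.05. In RKO 3 of 12 rose and 5 fell, shares near the 26.4% and 42.1% over all genes tested, with PIAS4, a SUMO ligase that inhibits STAT signalling (log2 fold change -0.40 ± 0.04, limma adjusted p = 1.27e-07), and IRF2BP2, a corepressor of IRF2 (log2 fold change -0.27 ± 0.03, limma adjusted p = 2.67e-06), lower and NLRX1, a mitochondrial inhibitor of MAVS signalling (log2 fold change 0.26 ± 0.04, limma adjusted p = 9.54e-06), higher.

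**Figure D5:**
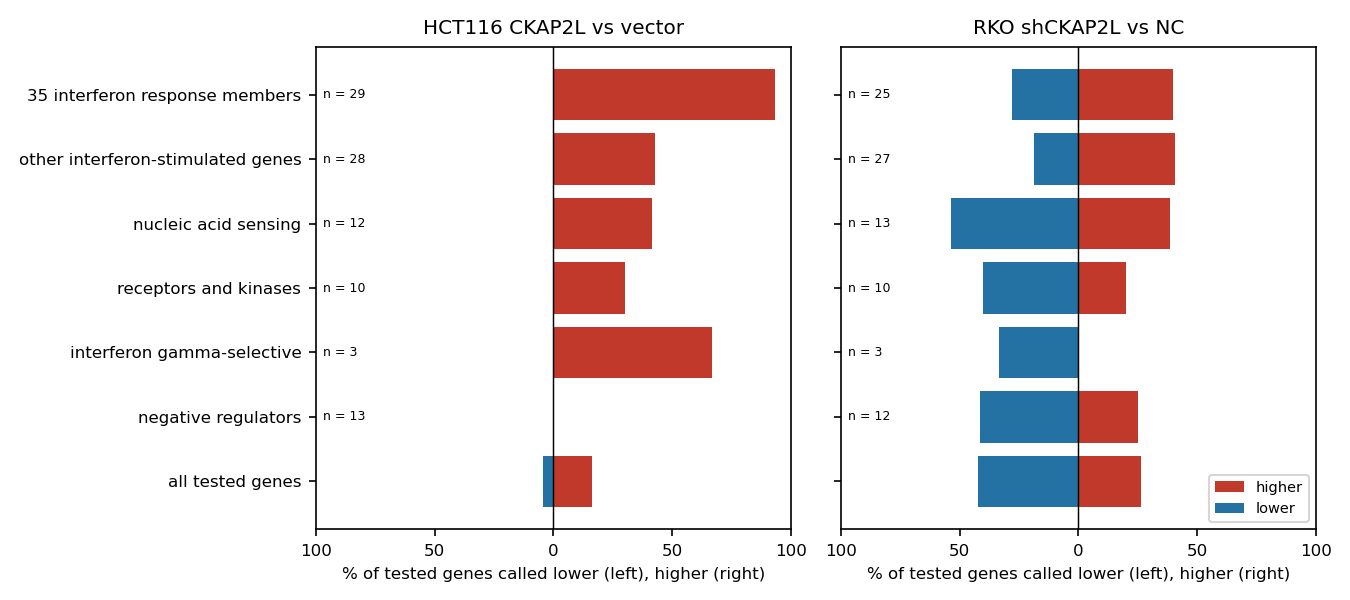
Percentage of tested genes called higher (right of 0) and lower (left of 0) in HCT116 (CKAP2L against vector) and RKO (shCKAP2L against NC), for the 35 members, 5 other pathway lists and all tested genes, with n the number tested in each list. In HCT116 bars extend to the right alone except over all genes, with none for the negative regulators, and in RKO they extend both ways for each list but the interferon gamma one.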

How the data were processed

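For each line, the authors deposited TPM values of 20263 Ensembl genes in a table with a column for each library. The submitters' processing notes name the build GRCh38 and the tools HISAT2 2.0, Trimmomatic 0.36, bedtools 2.26.0 and FastQC 0.11.2. The sources used here give neither the counting tool and annotation nor the treatment of strand and of multiply matching reads. Because TPM is a share, abundant transcripts that change shift all other values, and the depth per library is unknown. Groups came from the library titles, which disagree with the genotype labels of shCKAP2L replicates 2 and 3 in the symbol named.

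Values were analysed as log2(TPM + 1), which understates changes of low genes, for genes with a mean of at least 1 TPM over a line's 6 libraries. Each line was fitted in R 4.3.3 by limma 3.58.1 (two-sided, no covariates, prior variance with a trend), with Benjamini-Hochberg adjustment over the genes tested and calls at an adjusted p under 0.05. The difference between lines was a contrast in 1 model of the 12 libraries. The fit was tested on simulated data with known changes. Positions are from GENCODE release 29 (GRCh38), and shared sequence was counted as 50-base words of each member's longest transcript found in transcripts of other genes. Promoters are RefSeq's (GRCh38.p14), with an entry for 28 of the 35 members.

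The members, the other lists and the tests were chosen with earlier results of these data known. Members described library by library are, per line, the 8 with the smallest adjusted p and those called in both lines. IRF9 and RSAD2, tested in neither line, were also given library by library, outside that rule. Per other list and line, up to 3 called genes with the smallest adjusted p are named. One gene that this rule names is not reported here. Alternatives were other pseudocounts, filters and scalings, no trend, 1 fit over 12 libraries, a replicate block and leaving out each library. Libraries with the same replicate number in a line did not deviate together (correlations of -0.09 to 0.05), so the numbers were not taken to pair them.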

Additional observations from a re-analysis of the deposited data

Results flagged for a closer look

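For 18 of the 25 members tested in both lines, the log2 fold change of CKAP2L over vector in HCT116 differed from that of NC over shCKAP2L in RKO (limma, 12 libraries), and each difference, the first minus the second, was positive. CKAP2L itself differed by 2.40, so the manipulations were unequal in size and these values do not show that a gene's change relative to that of CKAP2L differed. For the IFIT genes it was 1.94 for IFIT3, 1.57 for IFIT2, which passed the filter in RKO only through its shCKAP2L values, and 0.95 for IFIT1. For the sensors it was 1.23 for RIGI, 0.69 for DDX60 and 0.49 for IFIH1. Among effectors it was 1.08 for ISG20, 1.01 for BST2, 0.50 for MX1 and 0.47 for OAS3. In the ISG15 system it was 1.17 for HERC6 and 0.46 for ISG15. Of the others it was 0.84 for IFI27, 0.83 for IFI6, 0.82 for IRF7, 0.58 for PARP9, 0.46 for PARP14 and 0.30 for SAMD9. Over all genes tested, 54.5% had a difference that passed, 27.6% positive and 27.0% negative. The 9 members that rose in both lines are all among the 18, and for such genes the difference is positive by its definition. A cause was not tested, and line and manipulation cannot be told apart.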

How the results depend on the processing

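No called value of a member turned its direction under any alternative. In HCT116, between 23 and 28 members rose and 0 fell over the alternatives, and 23 of 29 members kept their call or lack of call in each. In RKO 7 to 13 rose and 5 to 8 fell, and 15 of 25 kept theirs. The difference between lines passed for 13 to 25 members, with 0 negative. The number of members tested changed with the filter on low values, so these counts have no fixed total. In the main fit, 26.4% of all genes tested rose and 42.1% fell in RKO. The difference passed with a positive sign for 27.6% and a negative sign for 27.0% of all genes tested. All-gene ranges over every alternative are not given here, so the member ranges are not read as particular to the members. Without 1 library, 10 to 11 members rose and 5 to 8 fell in RKO. Over all genes it was 2709 to 3081 and 4392 to 5075. The difference then passed for 18 to 19 members, beside 2704 to 3283 positive and 2670 to 3016 negative over all genes. The members' median log2 fold change in HCT116 was 0.47, 0.44 and 0.31 with pseudocounts of 0.1, 0.5 and 5, 0.39 with no filter, 0.46 with a minimum mean of 5 TPM, 0.36 with median-of-ratios rescaling, 0.35 with quantile normalization, 0.37 without mitochondrial genes and 0.40 to 0.46 without 1 library. Over all genes in HCT116, genes called higher numbered 1128, 1103 and 1158 under those 3 scalings, against 2082 as deposited, and those called lower 1188, 1131 and 959, against 543. Genes called lower numbered 341 with no filter and 267 with no trend. Without 1 library 1184 to 2849 genes were higher and 296 to 577 lower, with the fewest of each without CKAP2L replicate 1. The lower count was 316 without CKAP2L replicate 2 and 327 without CKAP2L replicate 3. Of the other pathway lists, 1 gene fell under median-of-ratios rescaling. The replicate numbers were not taken to pair libraries, and with a replicate block 27 members rose and 0 fell in HCT116, and 10 rose and 7 fell in RKO, the same counts as without it. Causes were not tested. The depth of each library is unknown, so the precision of members near 0 TPM cannot be given.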
